A study of Mus musculus with 2 samples.

Results

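Il1a, Il1b, Il1rn, Il1r2, Il1rap, Il18, Il18bp, Nlrp3 and Casp1 encode the central ligands, antagonists, receptors and inflammasome parts of the interleukin-1 (IL-1) system. They were picked by symbol, and all 9 are among the 31253 genes listed in both libraries. The data were unique molecular identifier (UMI) counts per gene and cell from CD45+ cells, the immune cells, of B16-F10 tumors. B16-F10 is a mouse melanoma line, of which 200000 cells were injected under the skin of C57BL/6 mice, and tumors were taken on day 10. One group of mice was Irg1+/+ and the other Irg1-/-, a germline loss of Irg1 in every cell, so tumor-bearing hosts but not the injected melanoma cells differed in genotype. The paper names C57BL/6J as the background to which its Irg1-/- mice were backcrossed. For each genotype the tumors of 3 mice were pooled before sorting into a single BD Rhapsody microwell library, so there is 1 library per genotype, differences carry no replicate check, and no test was made.

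IL-1α and IL-1β bind the same receptor, which signals together with the accessory protein Il1rap to NF-κB, whereas the antagonist encoded by Il1rn occupies that receptor without signaling and Il1r2 is a decoy that binds ligand and does not signal. IL-1β and IL-18 are made as precursors, and caspase-1, activated on an inflammasome built around the sensor Nlrp3, cuts them, while IL-18 is held in check by the soluble binding protein Il18bp. Transcripts therefore report the supply of precursor and regulator, not the amount of active cytokine. In tumors, IL-1β of myeloid cells is known for recruiting neutrophils and further myeloid cells.

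The files held 6408 cells of the Irg1+/+ library and 5896 of the Irg1-/- library, with 43617546 and 36432067 UMIs. Mitochondrial genes took under 10% of UMIs in 6284 and 5794 cells, which were kept, at a median of 4528 and 4594.5 UMIs per cell. The libraries shared 36 barcodes. Of the 12078 kept cells, 9878 were gated by marker genes that include none of the 9, and 2200 were left without a group, 426 of them because the best scores of a pair of classes lay within 0.1. Gates are cuts of a per-cell score. Among 1404 monocytes 131 lay within 0.1 of the cut that sets the interferon-activated state apart, and 660 of 2242 macrophages had no state. Levels were ranked over the 15 groups with at least 50 cells in each library. The gated mast cells (8 and 11 cells), melanocytes (104 and 20 cells) and Lyve1, Mgl2, Ear2 and cycling macrophages fell short of this and were not ranked. Levels below are UMIs of a gene summed over the cells of a group, per 1000000 UMIs of that group (CPM), with an exact Poisson 95% interval. Intervals cover counting error only. Counts are of transcript ends, so that levels of different genes were set side by side without scaling by length.

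Acod1, the current symbol of Irg1, was read in both libraries and was not lower overall in the library labelled Irg1-/-, at 87.8 CPM in all Irg1+/+ cells and 108 CPM in all Irg1-/- cells. In neutrophils it stood at 1656 CPM in Irg1+/+ and 1436 CPM in Irg1-/-, and in macrophages at 131 and 161 CPM. How the allele alters the transcript is not given in the sources used here, and UMIs at a transcript end outside an altered part check nothing. Directions below are therefore those of the library labels. Vegfa macrophages were 5.06% of kept cells in Irg1+/+ and 2.74% in Irg1-/-, and monocytes 9.36% and 14.1%. The paper reports a decrease of Vegfa+ macrophages and an increase of Vcan+ monocytes with Irg1 deficiency, the same directions by label. Its single-cell values come from these same libraries, so the match does not check the labels.

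The gate names were set against their markers. The neutrophil gate held 72 Irg1+/+ cells, 1.15% of the library, and 198 Irg1-/- cells, 3.42%, with median depths of 1852.5 and 1916 UMIs. All 8 neutrophil markers had UMIs, led by S100a9 at 3934 and 6872 CPM, but Ly6g was close to absent at 66.9 and 12.2 CPM. Their summed level was 12173 CPM in Irg1+/+ and 16449 CPM in Irg1-/-. RNA of other cells was present in the same gate. Macrophage markers summed to 2155 and 2135 CPM, all 10 of 10 with UMIs and led by C1qb, and T cell markers to 1275 and 478 CPM. Over single neutrophils the median was 0 and 136 CPM for C1qb and 0 for Cd3e in both libraries. The eosinophil gate, 57 and 110 cells with medians of only 915 and 1225.5 UMIs, held Retnlg at 4619 and 3525 CPM and Ccr3 at 607 and 622 CPM, whereas the granule gene Epx had no UMI. Alox15 stood at 1142 and 1143 CPM and F5 at 1026 CPM in both libraries. Siglecf rested on only 15 and 40 UMIs and Il5ra on 9 and 19. The paper uses Retnlg, like S100a9, to mark neutrophils, so the name of this gate is less certain. Other cells' markers differed between libraries in this gate, those of macrophages at 2063 and 5040 CPM, of monocytes at 2168 and 4243 CPM and of T cells at 1603 and 459 CPM. The part that RNA of other cells plays in the granulocyte values was not tested.

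All 9 genes were placed on GRCm38 with GENCODE M21. Il1a lies on the minus strand of chromosome 2 at 129299610-129309972 and Il1b near it on the same strand at 129364570-129371139. Il1rn is on the plus strand of chromosome 2 at 24336853-24351494. Il1r2 is on chromosome 1 at 40074079-40125231, Il1rap on chromosome 16 at 26581704-26730117, Il18 on chromosome 9 at 50554827-50581840, Nlrp3 on chromosome 11 at 59541568-59566956 and Casp1 on chromosome 9 at 5298517-5307265, all on the plus strand. Il18bp is on the minus strand of chromosome 7 at 102014885-102018690. Its 3′ end overlaps that of Numa1, and Il18 overlaps Bco2 and Tex12. The antisense gene Il1bos overlaps Il1b and had 67 and 81 UMIs in the files, against 58311 and 55722 for Il1b in kept cells. Use of strand in counting is not given in the sources used here, so reads of overlapping genes cannot be told apart.

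The 250 bases before the transcription start are shown for the 3 genes that were past 1.5-fold higher in Irg1-/- neutrophils with an interval above 0 (RefSeq, GRCm38.p6, gene strand, 5′ to 3′). Il1a is shown from chr2:129309973-129310222, Il1b from chr2:129371140-129371389 and Nlrp3 from chr11:59541319-59541568, the more upstream of its 2 RefSeq starts. Capitals mark TATAAA in Il1a and Il1b, the AP-1 letters TGANTCA in Il1a, and a match to the NF-κB consensus in Nlrp3.
Il1a: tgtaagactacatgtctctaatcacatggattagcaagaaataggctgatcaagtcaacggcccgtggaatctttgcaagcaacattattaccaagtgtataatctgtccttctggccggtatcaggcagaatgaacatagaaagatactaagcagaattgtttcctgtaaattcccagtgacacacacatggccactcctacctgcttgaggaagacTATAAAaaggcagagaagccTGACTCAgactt
Il1b: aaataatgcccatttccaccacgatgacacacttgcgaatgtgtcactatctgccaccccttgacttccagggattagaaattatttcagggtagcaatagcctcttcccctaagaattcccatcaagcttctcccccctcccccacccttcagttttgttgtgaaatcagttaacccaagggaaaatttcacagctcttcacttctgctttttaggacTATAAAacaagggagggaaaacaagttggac
Nlrp3: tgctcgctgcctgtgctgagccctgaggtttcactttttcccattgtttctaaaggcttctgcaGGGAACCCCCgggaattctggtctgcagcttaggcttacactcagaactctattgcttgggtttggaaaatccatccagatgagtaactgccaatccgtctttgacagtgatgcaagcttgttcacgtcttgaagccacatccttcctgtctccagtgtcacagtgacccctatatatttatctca
TATAAA began 32 bases before the start of Il1a and 31 before that of Il1b, the usual place of a TATA box, and the AP-1 letters began 12 bases before the start of Il1a. The NF-κB match of Nlrp3 began 186 bases before its start, on the opposite strand. Of 32851 such windows searched on both strands, 12.4% held TATAAA, 6.75% TGANTCA and 3.90% the NF-κB consensus. Over the 12 windows of the 9 genes, 3 held TATAAA (Il18 the other), 2 TGANTCA (Il1rn the other) and 1 the NF-κB consensus. A match describes the letters of a window, and nothing was measured of binding.

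Il1b, the gene of IL-1β, was by far the most abundant of the 9, with a level in neutrophils above that in every other group of the same library. Neutrophils held 5868 CPM (5532 to 6219) in Irg1+/+ and 10265 CPM (9984 to 10551) in Irg1-/-. Vegfa macrophages, the hypoxia-marked state, followed in Irg1+/+ at 2867 CPM, whereas in Irg1-/- interferon-activated monocytes followed at 2726 CPM. Classical monocytes stood at 2505 CPM in Irg1+/+ and 2350 CPM in Irg1-/-, nonclassical monocytes at 2168 and 2456 CPM and MHC class II macrophages at 2665 and 2022 CPM. Interferon-activated monocytes and MHC class II macrophages did not differ beyond their intervals in Irg1+/+, nor did nonclassical and classical monocytes in Irg1-/-. Within macrophages Il1b differed by state, and Mrc1 macrophages held only 674 CPM in Irg1+/+ and 1019 CPM in Irg1-/-. Type 2 conventional dendritic cells (cDC2) were at 1946 and 1982 CPM, above cDC1 at 970 and 1324 CPM and mature dendritic cells at 994 and 1113 CPM. Plasmacytoid dendritic cells, at 406 and 366 CPM, lay near the 375 and 381 CPM read in T, NK and B cells together, the lymphocytes that served as the comparison for free RNA.

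Per cell, Il1b was broad rather than confined to a few neutrophils. After thinning to 1000 UMIs per cell, 87.0% (76.7 to 93.9) of 69 Irg1+/+ neutrophils and 95.1% (90.9 to 97.7) of 183 Irg1-/- neutrophils had an Il1b UMI, against 22.2% and 22.1% of lymphocytes. Unthinned shares were 94.4% and 99.5% in neutrophils, at median depths of 1852.5 and 1916 UMIs, and 59.3% and 57.0% in lymphocytes, at 3600.5 and 2879 UMIs. Thinning left out 3 and 15 neutrophils as too shallow. The median neutrophil held 4955 CPM (quartiles 1488 and 11214) in Irg1+/+ and 9961 CPM (4972 and 17836) in Irg1-/-. The quartile ranges of the libraries overlapped, and the 10th percentile was 618 CPM in Irg1+/+ and 1941 CPM in Irg1-/-.

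**Figure D1:**
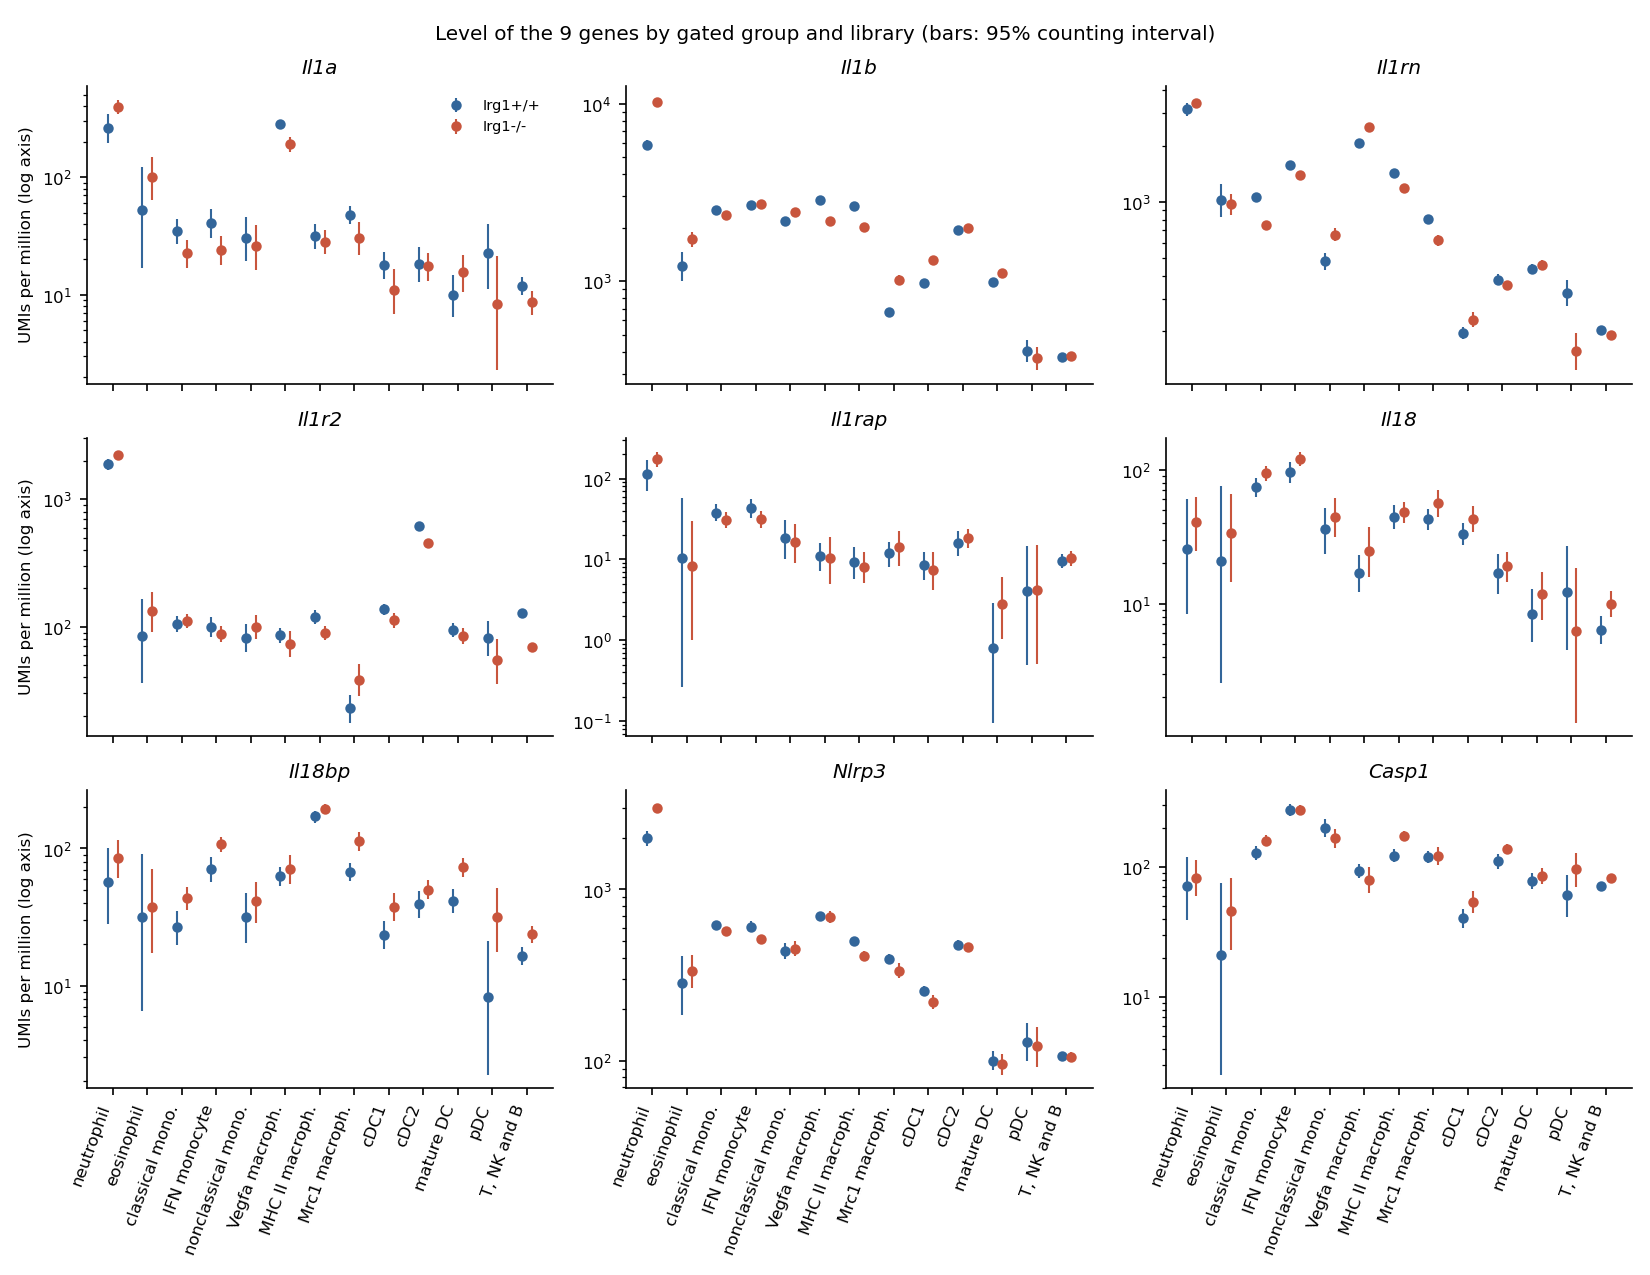
Level of each of the 9 genes (CPM, log axis) in each gated group for both libraries, with bars for the 95% counting interval. Il1b, Il1rn, Il1r2, Il1rap and Nlrp3 peak in neutrophils, Il18 and Casp1 in interferon-activated monocytes and Il18bp in MHC class II macrophages.

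Il1a, the gene of IL-1α, which is active without caspase-1, was rarer than Il1b and had a narrower pattern. Its level was 284 CPM in Irg1+/+ Vegfa macrophages and 192 CPM in Irg1-/- ones. Neutrophils held 262 CPM (195 to 345) in Irg1+/+, an interval that overlapped that of Vegfa macrophages, and they were the highest Irg1+/+ group when each graph cluster took its most frequent gate (494 CPM), as a mean over cells (359.7 CPM) and without cells holding markers of another lineage (309 CPM). They held 397 CPM in Irg1-/-, where they stood clear of every other group. That level was 232 CPM in cells at or under the median of the dissociation genes described below. It was 551 CPM with cells thinned to 2000 UMIs, and neutrophils were the highest group in both settings. Eosinophils followed at 52.4 and 100 CPM, from only 5 and 24 UMIs. Mrc1 macrophages held 48.1 and 30.5 CPM and MHC class II macrophages 31.6 and 28.4 CPM, with lymphocytes at 11.9 and 8.62 CPM.

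Where the Il1a transcripts came from differed between the libraries. Macrophages held 66.6% of all Il1a UMIs in Irg1+/+ and 39.96% in Irg1-/-, of which Vegfa macrophages accounted for 32.9% and 16.3% of the total. Neutrophils held 2.39% in Irg1+/+ and 17.3% in Irg1-/-. These shares mix the number of cells gated with the level in each: the sorted libraries had 318 and 159 Vegfa macrophages and 72 and 198 neutrophils. For Il1b the neutrophil share was 1.96% and 9.10%.

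Il18, the gene of the interferon-γ-inducing cytokine IL-18, had another distribution, with its highest levels in monocytes. Interferon-activated monocytes held 95.3 CPM in Irg1+/+ and 120.5 CPM in Irg1-/-. Classical monocytes held 74.0 and 94.2 CPM, within the overlap of the intervals. MHC class II macrophages stood at 44.5 and 47.9 CPM and Mrc1 macrophages at 42.8 and 56.4 CPM, while Vegfa macrophages, high in Il1a, were at 17.0 and 24.9 CPM. Lymphocytes read 6.39 and 9.96 CPM.

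Il1rn, the gene of the IL-1 receptor antagonist, was likewise highest in neutrophils, at 3137 CPM in Irg1+/+ and 3382 CPM in Irg1-/-. Vegfa macrophages were next at 2076 and 2513 CPM, then interferon-activated monocytes at 1577 and 1400 CPM. In each library these 3 groups stood apart beyond their intervals. The order was that of Il1b in Irg1+/+ but not in Irg1-/-, where Vegfa macrophages, at 2183 CPM of Il1b, followed the 3 monocyte states. It was low in cDC1, at 196 and 232 CPM, near the 204 and 192 CPM of lymphocytes.

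The balance of ligand to antagonist transcripts was taken as Il1b UMIs per Il1rn UMI. It was 1.87 (1.69 to 2.07) in Irg1+/+ neutrophils and 3.03 (2.87 to 3.21) in Irg1-/- neutrophils. In Vegfa macrophages it ran the other way, at 1.38 (1.33 to 1.43) in Irg1+/+ and 0.869 (0.819 to 0.922) in Irg1-/-. The contents of this gate differed as well, with T cell markers at 798 and 483 CPM, its own markers Mmp12 at 2679 and 1607 CPM and Spp1 at 2243 and 1355 CPM, and an S100a8 UMI in 7.86% and 21.4% of cells. Without cells holding markers of another lineage, which left 266 of 318 and 152 of 159 cells, the Il1b log2 ratio there was -0.46, against -0.39 with them. The part of these shifts in the balance was not tested. In Mrc1 macrophages Il1b UMIs per Il1rn UMI were 0.830 (0.781 to 0.883) in Irg1+/+ and 1.65 (1.51 to 1.803) in Irg1-/-, in a gate whose monocyte markers summed to 1839 and 3553 CPM. None of these 3 pairs of intervals overlapped, although with 1 library per genotype they bound only the counting error. The intervals were also apart in plasmacytoid dendritic cells, at 1.25 (1.01 to 1.55) and 2.33 (1.77 to 3.10). They were apart as well in interferon-activated monocytes, at 1.71 and 1.95, in MHC class II macrophages, at 1.88 and 1.71, and in classical monocytes. Il1b per Il1rn was high in conventional dendritic cells, with 4.95 and 5.71 in cDC1, where Il1rn itself was near the lymphocyte level, and 5.12 and 5.60 in cDC2. Nonclassical monocytes had 4.53 and 3.70, the former within overlap of the dendritic cells, and classical monocytes had 2.36 and 3.14. T cells read 1.796 and 1.898.

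**Figure D2:**
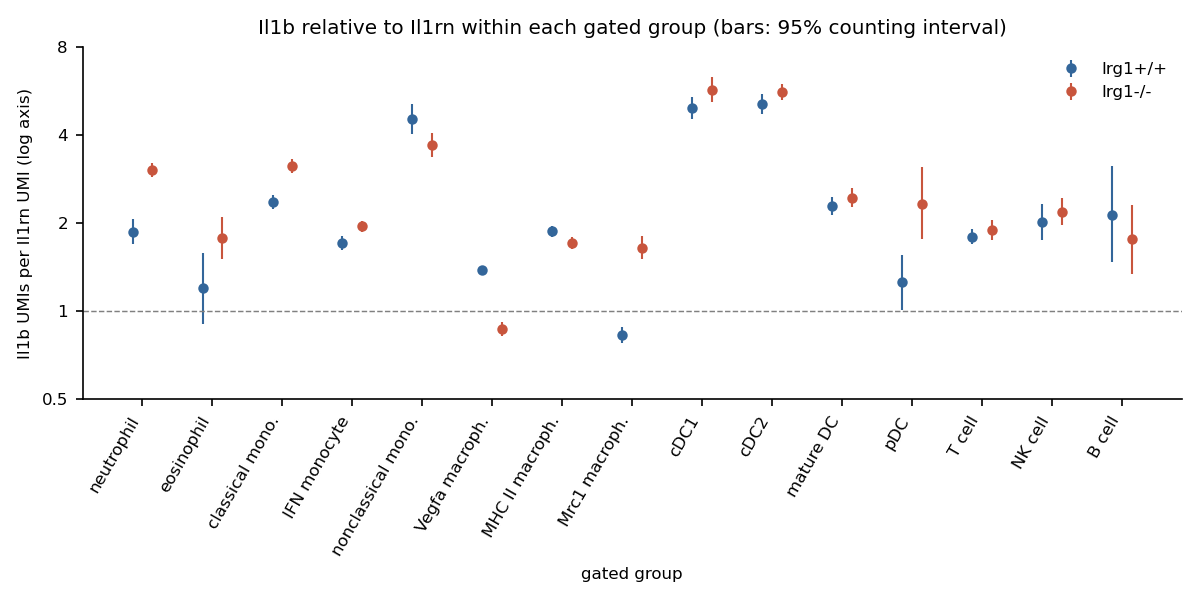
Il1b UMIs per Il1rn UMI (log axis) in each gated group for both libraries, with bars for the 95% counting interval. Neutrophils and Mrc1 macrophages lie higher in Irg1-/- (3.03 against 1.87 and 1.65 against 0.830) and Vegfa macrophages lower (0.869 against 1.38).

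Il1r2, the decoy receptor, had its highest level in neutrophils, at 1877 CPM in Irg1+/+ and 2224 CPM in Irg1-/-, although these few cells held only 6.30% and 19.9% of its UMIs. It was next in cDC2, at 619 and 452 CPM, which stood apart from every group below and held 21.5% and 26.8% of its UMIs. Mrc1 macrophages lay lower than lymphocytes, at 23.0 and 38.4 CPM. The lymphocytes' own level was 128 CPM in Irg1+/+ and 69.1 CPM in Irg1-/-, so that a fold over lymphocytes is less certain for Il1r2 than for the other genes. Among lymphocytes T cells read 142 and 85.7 CPM and NK cells 46.5 and 35.9 CPM.

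Il1rap, the accessory chain that IL-1, IL-33 and IL-36 receptors share, was rare. It reached 113 CPM in Irg1+/+ neutrophils and 174 CPM in Irg1-/- neutrophils, from 22 and 86 UMIs, and 42.9 and 31.4 CPM in interferon-activated monocytes. With cells thinned to 2000 UMIs, which left 27 and 88 neutrophils, their level was 241 CPM in Irg1+/+ and 170 CPM in Irg1-/-. Lymphocytes read 9.59 and 10.4 CPM, a level that Vegfa and MHC class II macrophages did not exceed beyond their intervals. The signaling receptor Il1r1 itself was at most 20.5 CPM in the 15 ranked groups of either library.

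Il18bp, the IL-18 antagonist, was highest in MHC class II macrophages, at 171 CPM in Irg1+/+ and 194 CPM in Irg1-/-. When each graph cluster took its most frequent gate, they were again highest but at 96.0 and 129 CPM. Next came interferon-activated monocytes, at 71.1 and 108 CPM, and Mrc1 macrophages, at 67.6 and 113 CPM, without separation between them. Il18 UMIs per Il18bp UMI were 2.78 (2.01 to 3.91) and 2.17 (1.72 to 2.77) in classical monocytes. The same value was 0.2597 (0.206 to 0.324) and 0.247 (0.202 to 0.299) in MHC class II macrophages. In interferon-activated monocytes it was 1.34 (1.01 to 1.78) and 1.12 (0.94 to 1.34), and in nonclassical monocytes the interval held 1 in both libraries. Classical monocytes thus held more ligand than binding-protein transcripts and MHC class II macrophages fewer.

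Nlrp3, the inflammasome sensor whose transcription is a known priming step, was highest in neutrophils, at 1990 CPM in Irg1+/+ and 3002 CPM in Irg1-/-. Vegfa macrophages came next at 697 and 690 CPM, and classical monocytes at 619 and 569 CPM. Mature dendritic cells, at 100.4 and 95.7 CPM, read no more than lymphocytes, at 106 and 106 CPM, although they held Il1b at 994 and 1113 CPM. Casp1, the protease gene, had another order. It was highest in interferon-activated monocytes, at 276 CPM in both libraries, followed in Irg1+/+ by nonclassical monocytes at 200 CPM. Neutrophils held 72.0 and 83.0 CPM of Casp1, from 14 and 41 UMIs, against 71.4 and 83.0 CPM in lymphocytes, and the mean over single neutrophils was 37.2 and 52.8 CPM. After thinning, 0 of 69 Irg1+/+ neutrophils (upper bound 5.21%) and 5.46% of 183 Irg1-/- neutrophils had a Casp1 UMI, against lymphocyte shares of 6.29% and 9.32%. Neutrophils thus had the most Nlrp3 and Il1b of any group and Casp1 at or below the lymphocyte level, depending on the measure, in both libraries.

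Against the lymphocytes of the same library, 8 of the 9 genes, all but Casp1, were past 2-fold higher in neutrophils in both libraries. In Irg1+/+ neutrophils Il18 and Il18bp rested on 5 and 11 UMIs, with intervals that reached below 2-fold. Over all genes with at least 20 UMIs, 15.1% were past 2-fold higher there in Irg1+/+ and 12.3% in Irg1-/-. In interferon-activated monocytes 8 of 9 were, all but Il1r2, beside 12% and 11.9% of all genes. In classical and nonclassical monocytes 6 of 9 were in each library, beside 11.5% and 12% of all genes in the former and 12.2% and 12.1% in the latter. In Vegfa macrophages 6 of 9 were, beside 12.7% and 12.6%. MHC class II macrophages had 6 and 7 such genes, beside 12.4% and 12.9%, and Mrc1 macrophages 5 and 6, beside 13.4% and 13%. Eosinophils had 6 and 5, beside 20.1% and 14.7%, and in Irg1+/+ 3 of the 6, Il18, Il18bp and Il1a, rested on 2, 3 and 5 UMIs. In cDC2 there were 5 of 9 in each library, beside 10.5% and 11%, in mature dendritic cells 3, beside 11.5% and 11.9%, and in cDC1 3, beside 9.07% and 9.34%. In plasmacytoid dendritic cells 1 gene, Il18 from 6 UMIs, was in Irg1+/+ and 0 in Irg1-/-, where 13.6% and 13.5% of all genes were. Levels in neutrophils exceeded those of lymphocytes by 15.67-fold and 26.96-fold for Il1b and by 22.10-fold and 45.83-fold for Il1a.

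The libraries were compared group by group as the log2 ratio of CPM, Irg1-/- over Irg1+/+, with 0.5 UMI added to each count and a counting interval, and a ratio past 1.5-fold with at least 20 UMIs was counted. In neutrophils 4 of the 9 genes were past 1.5-fold higher in Irg1-/- and 0 lower, beside 10.8% of 4529 genes higher and 17% lower. Their median log2 ratio was 0.55 and that of all genes -0.10, and scaling by trimmed means (TMM) put the middle of all genes at -0.16, so that ratios relative to it are larger by that amount. Il1b was higher by 0.81 (0.71 to 0.90), Nlrp3 by 0.59 (0.43 to 0.76), Il1a by 0.59 (0.15 to 1.07) and Il1rap by 0.60 (-0.07 to 1.37). Only Il1b, 1.75-fold higher, was well past the threshold, and the other 3 lay just beyond it. Of 11 alternatives, Il1b stayed past it in 10, Nlrp3 and Il1a in 6 each and Il1rap in 5. With cells thinned to 2000 UMIs, Il1rap was lower in Irg1-/-. Il1r2 had 0.24 (0.07 to 0.42) and Il1rn 0.11 (-0.03 to 0.24), so that the antagonist transcripts differed less than the ligand.

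Several other measures moved with these neutrophil ratios. The summed neutrophil markers were higher in Irg1-/- and the summed T cell markers lower, as given above. Of the 10 immediate early and heat shock genes known to respond to tissue dissociation, 6 were past 1.5-fold higher in Irg1-/- neutrophils, their sum being 8121 CPM in Irg1+/+ and 12349 CPM in Irg1-/-. In neutrophils at or under the median of these genes, 50 and 85 cells, the Il1b log2 ratio was 0.53 and that of Il1a -0.26. Nlrp3 had 0.67 there. In neutrophils without a C1q UMI, 25 and 70 cells, the ratio was 0.78 for Il1b, 1.42 for Il1a and 0.05 for Nlrp3. Il1b was thus higher in Irg1-/- neutrophils in both subsets, whereas Il1a turned in the first and Nlrp3 came close to 0 in the second. The part of dissociation in these values was not tested.

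**Figure D3:**
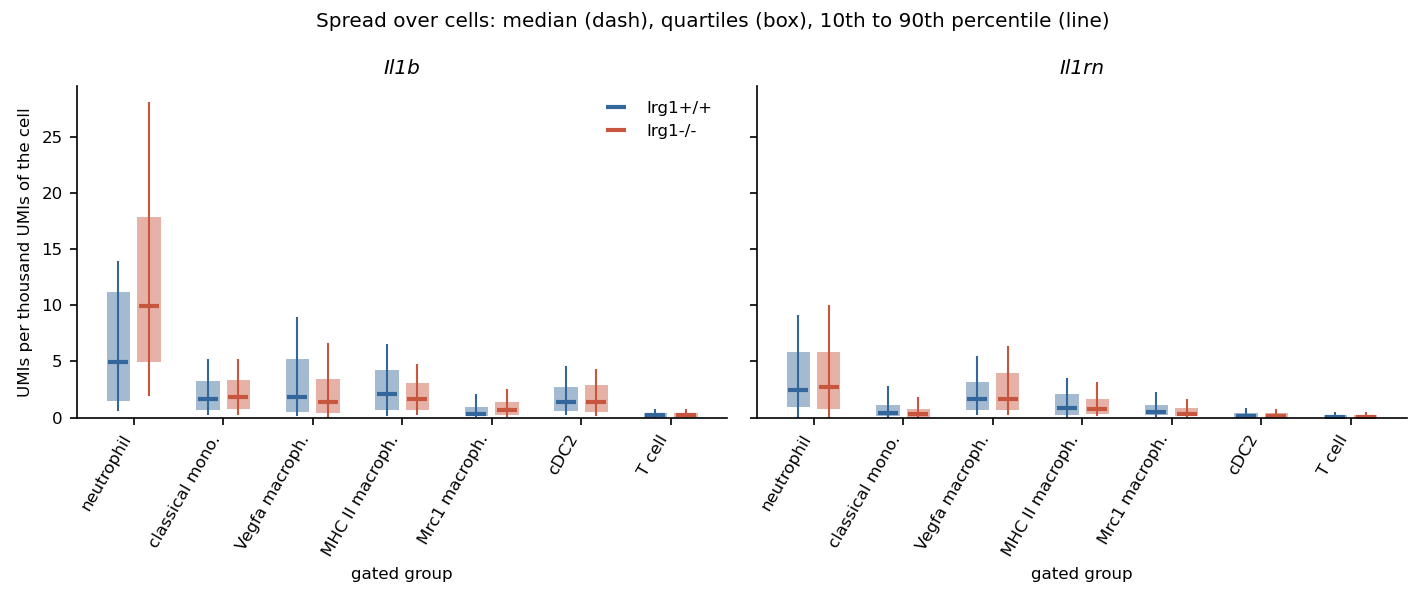
Levels of Il1b and Il1rn per cell (UMIs per 1000 UMIs of the cell) by gated group and library: dashes are medians, boxes quartiles and lines the 10th to 90th percentile. The median Irg1-/- neutrophil lies above the median Irg1+/+ neutrophil for Il1b, with overlapping quartile boxes.

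Macrophages had a gene on each side. Over all 1307 and 935 macrophages 1 of 9 genes was past 1.5-fold higher, Il18bp, and 1 lower, Il1a, beside 5.42% and 6.11% of all genes. Il1a was at 105 CPM in Irg1+/+ and 50.7 CPM in Irg1-/-, lower by a log2 ratio of -1.05 (-1.21 to -0.90). Il18bp was at 80.2 and 132 CPM, higher by 0.72 (0.60 to 0.84). Casp1 had 0.33 (0.23 to 0.44), Nlrp3 -0.30 (-0.36 to -0.24) and Il1b -0.21 (-0.24 to -0.18). For Il1b this is not the direction of the paper's qRT-PCR, which found it increased, with Tnf and Il6, in tumor macrophages of Irg1-/- mice. That is another assay on separately isolated cells, and the difference was not tested. The state with the most Il1a was also the rarer in Irg1-/-, as counted above, and with the states weighted as in Irg1+/+ the Il1a ratio was -0.75. Within states the Il1a ratio was -0.56 (-0.81 to -0.33) in Vegfa macrophages, -0.15 (-0.64 to 0.33) in MHC class II macrophages and -0.64 (-1.21 to -0.13) in Mrc1 macrophages. Unranked states and macrophages without a state are not among these. The Mrc1 value stayed past 1.5-fold in 7 of 9 alternatives and turned positive in cells at or under the median of the dissociation genes.

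Il1b showed no common direction among the states. Its log2 ratio was -0.39 (-0.46 to -0.32) in Vegfa macrophages and -0.40 (-0.45 to -0.35) in MHC class II macrophages, where monocyte markers summed to 3885 and 5318 CPM and T cell markers to 643 and 420 CPM. In Mrc1 macrophages it was 0.60 (0.49 to 0.70), and the median Mrc1 macrophage held 317 CPM in Irg1+/+ and 634 CPM in Irg1-/-. The monocyte markers that differed in the Mrc1 gate, as given above, were led by F13a1 in Irg1+/+ and by Ly6c2 in Irg1-/-. Without cells holding markers of another lineage the Il1b ratio was 0.21, and it stayed past 1.5-fold in 4 of 9 alternatives. In this state 3 of 9 genes, Il1b, Il1r2 and Il18bp, were past 1.5-fold higher and 1, Il1a, lower, beside 7.18% and 10.6% of all genes. In MHC class II macrophages 0 of 9 were past 1.5-fold, beside 4.4% of all genes higher and 6.98% lower, although Acod1 was, at 101 and 202 CPM. In Vegfa macrophages 0 of 9 were as well, beside 6.81% and 10.1%. The dissociation genes summed to 7110 and 10278 CPM in Vegfa macrophages, to 7141 and 7505 CPM in MHC class II macrophages and to 5893 and 6988 CPM in Mrc1 macrophages.

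In monocytes Il1b was nearly the same in both libraries, with a log2 ratio of -0.03 (-0.07 to 0.01). Il18bp was past 1.5-fold higher at 0.73 (0.45 to 1.03) and Il1a lower at -0.68 (-1.07 to -0.29), beside 5.23% and 6.66% of all genes, with Il1a at only 37.2 and 23.2 CPM. Split by state, classical monocytes had 1 of 9 higher (Il18bp at 0.70) and 1 lower (Il1a at -0.63), beside 6.78% and 7.09% of all genes. Interferon-activated monocytes had the same 2 genes past the threshold, Il18bp at 0.59 and Il1a at -0.76, beside 6.39% and 8.03%. Nonclassical monocytes had 0 of 9, beside 7.5% and 8.67%. Classical monocytes had less Il1rn in Irg1-/-, by -0.50 (-0.59 to -0.41), and nonclassical monocytes more, by 0.47 (0.28 to 0.67). In conventional dendritic cells (cDC1 and cDC2 together) Casp1 was higher by 0.66 (0.47 to 0.86) and Il18bp by 0.62 (0.33 to 0.92), with 0 of 9 lower, beside 6.27% of all genes higher and 8.97% lower. The cDC2 share of these cells differed, with 257 of 570 cells in Irg1+/+ and 409 of 623 in Irg1-/-, and within the types the Casp1 ratio was 0.42 in cDC1 and 0.31 in cDC2. Monocyte markers summed to 1494 and 2985 CPM in cDC1 and to 3253 and 5117 CPM in cDC2, and the dissociation genes to 3570 and 5104 CPM over both types. Without cells holding markers of another lineage the ratio was 0.68 for Casp1 and 0.56 for Il18bp, and the latter stayed past 1.5-fold in 5 of 10 alternatives. In cDC1 alone Il18bp was higher by 0.67 (0.20 to 1.15) and Il1a lower by -0.67 (-1.47 to 0.04), though at 0.91 with cells thinned to 2000 UMIs, beside 6.2% and 8.09% of all genes. In cDC2 0 of 9 were past 1.5-fold, beside 5.71% and 9.15%. In mature dendritic cells Il18bp was higher by 0.81 (0.45 to 1.18) and Il1a by 0.64 (-0.15 to 1.45), the latter from 25 and 33 UMIs and at -0.12 as a mean over cells and -0.19 in cells at or under the median of the dissociation genes, beside 5.72% of all genes higher and 8.97% lower. In that gate monocyte markers summed to 869 and 1518 CPM, the gate's own markers to 13704 and 11692 CPM and T cell markers to 682 and 437 CPM. In eosinophils 5 of the 9 genes had enough UMIs, and Il1a at 0.83 (-0.48 to 2.68) and Il1r2 at 0.61 (-0.48 to 2.00) were past 1.5-fold higher with intervals that held 0, and 0 were lower, beside 16.4% of all genes higher and 17.2% lower. Il1r2 stayed past 1.5-fold in only 2 of 9 alternatives and turned negative by cluster, whereas Il1a stayed past it in 8 of 9. The dissociation genes summed to 6347 and 9308 CPM in eosinophils. In plasmacytoid dendritic cells Il1rn was lower, at 324 and 157 CPM (-1.04, -1.46 to -0.64), and Casp1 higher by 0.64 (-0.05 to 1.36), beside 11.1% of all genes lower and 9.13% higher. There Casp1 stayed past 1.5-fold in only 4 of 9 alternatives, and Il1rn in 8 of 9. In that gate the dissociation genes summed to 3872 and 2343 CPM, the gate's own markers to 9842 and 8336 CPM and T cell markers to 919 and 599 CPM. Il18bp had a positive ratio in each of the 12 myeloid groups, from 0.11 in eosinophils to 1.81 in plasmacytoid dendritic cells, both of which held under 20 UMIs of it, and of 0.52 in lymphocytes too. Il1r2 was lower in T cells, by -0.73 (-0.88 to -0.57), where 3.1% of all genes were higher and 6.16% lower. In NK cells Il18bp was past 1.5-fold higher, from 16 and 53 UMIs, and Il1a lower, from 21 and 22 UMIs, beside 6.47% and 7.14% of all genes. In B cells Il1rn was past 1.5-fold higher at 0.78 (0.25 to 1.34) and Casp1 from 14 and 31 UMIs, and Il1r2 lower from 21 and 12 UMIs, beside 11% and 13.3%. In lymphocytes together Il18 was higher by 0.64 (0.16 to 1.13) and Il1r2 lower by -0.89 (-1.03 to -0.75), beside 4.43% and 6.16%. The makeup of the lymphocytes differed, with 1270 and 711 T cells and 399 and 740 NK cells, and Il18 had 0.55 in T cells and 0.48 in NK cells, both with intervals that held 0. The lymphocyte intervals of Il1a, Il18bp and Casp1 also lay to 1 side of 0, so that the level used as the comparison was not equal between libraries for several of the genes.

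**Figure D4:**
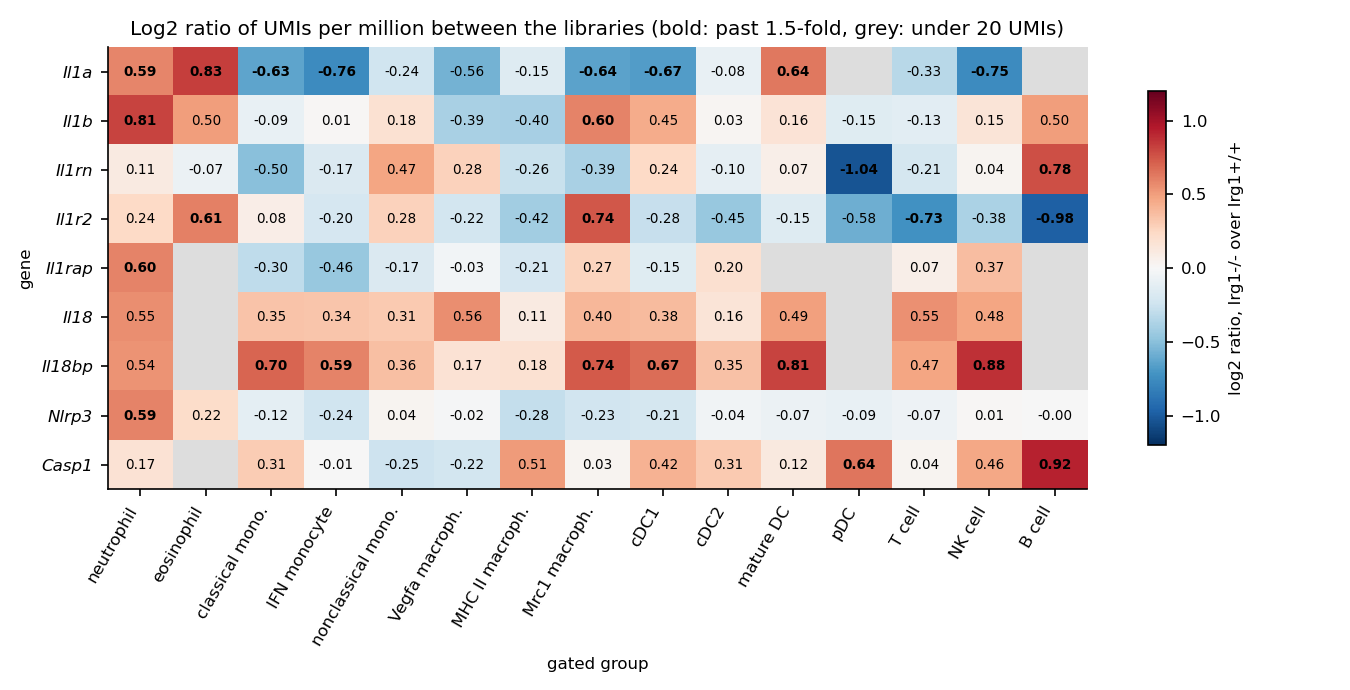
Log2 ratio of CPM, Irg1-/- over Irg1+/+, for the 9 genes (vertical axis) in each gated group (horizontal axis), with bold values past 1.5-fold and grey ones under 20 UMIs. Neutrophils hold 4 bold values above 0, and Il18bp is above 0 in each myeloid group where it is not grey (eosinophils and plasmacytoid dendritic cells are grey).

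Other genes of the pathway were read from lists by role. Of the IL-1 family ligands, Il1f9, the gene of IL-36γ, was chiefly a neutrophil transcript, with 94 of its 132 UMIs in Irg1+/+ and 367 of 441 in Irg1-/- in that gate. It stood at 483 and 743 CPM (0.62, 0.29 to 0.96), with lymphocytes at 0.282 and 0.850 CPM. In neutrophils 3 of 5 tested ligands were past 1.5-fold higher, with a median of 0.59, beside 10.8% of all genes and their median of -0.10. Il33 had 25 UMIs in each library, and Il1f8 and Il1f10 had 0. Of the receptors, Il18r1 and Il18rap, the IL-18 receptor chains, were highest in NK cells, at 213 and 216 CPM and at 303 and 326 CPM. Il1rl1, the IL-33 receptor, was highest in eosinophils among the ranked groups, which leave out mast cells, at 168 and 229 CPM. In neutrophils 1 of 5 tested receptor genes, Il1rap, was past 1.5-fold higher, beside the same 10.8%. In conventional dendritic cells 3 of 9 were, beside 6.27% of all genes, with a median of 0.56 against -0.05. These were Il18bp, Il18rap at 0.61 (0.27 to 0.95) and Il1rl1 at 1.24 (0.63 to 1.91), the last from 31 and 73 UMIs. They were read over cDC1 and cDC2 together, whose cDC2 share and monocyte markers differed between libraries as given above. The part of that difference in these ratios was not tested.

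Inflammasome parts other than Nlrp3 were spread over other cells. Mefv, the gene of pyrin, was highest in classical monocytes in Irg1+/+, at 191 CPM, and in interferon-activated monocytes in Irg1-/-, at 163 CPM. The adaptor Pycard was highest in Mrc1 macrophages, at 189 and 210 CPM. Interferon-activated monocytes had the most Casp4, at 276 and 301 CPM, and the most of the pore gene Gsdmd, at 175 and 199 CPM, beside the most Casp1. In neutrophils 3 of 8 tested sensors and adaptors were past 1.5-fold higher and 0 lower, with a median of 0.14, beside 10.8% and 17% of all genes. Beside Nlrp3 these were Nek7, which binds Nlrp3, at 1.44 from 7 and 51 UMIs and Nlrp12 at 1.68 from 3 and 28 UMIs, both named after their values were seen. Of the caspase and pore genes 0 of 5 were higher and 1, Casp8, lower, at 206 and 124 CPM (-0.74, -1.33 to -0.12). In conventional dendritic cells Casp4 was higher by 0.95 (0.74 to 1.17) and Mefv by 0.79 (0.51 to 1.08), in the gates whose monocyte markers and cDC2 share differed between libraries as given above. Of the signaling genes below the receptors, 3 of 15 were higher in neutrophils, Irak3, Irak4 and Tirap, each from at most 6 Irg1+/+ UMIs and named after their values were seen, and 1, Map3k7, lower, with a median of 0.05, beside the same shares of all genes.

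Genes that NF-κB induces are the known targets of IL-1 signaling. In neutrophils 2 of 13 tested were past 1.5-fold higher and 1 lower, near the 10.8% and 17% of all genes. Cxcl2, a neutrophil-attracting chemokine, was at 11468.5 and 17457 CPM (0.61, 0.54 to 0.67), and Ptgs2, the inducible cyclooxygenase, at 1121 and 2216 CPM (0.98, 0.77 to 1.199). Ccl4 was lower, at 4623 and 2909 CPM (-0.67, -0.79 to -0.55). In monocytes 5 of 13 were lower and 0 higher, beside 6.66% and 5.23% of all genes, with a list median of -0.47 beside an all-gene median of -0.03. These were Cxcl2, at 1771 and 978 CPM (-0.86, -0.91 to -0.80), Tnf at -0.69, Il6 at -0.72, Cxcl1 at -0.78 and Cxcl3 at -0.65, and from the signaling list Nfkbia, the inhibitor that NF-κB itself induces, had -0.70. In macrophages 2 of 15 were lower and 1 higher, Csf3, from 7 and 14 UMIs, near the 6.11% and 5.42% of all genes. There Cxcl1 was lower, at 408 and 155 CPM (-1.40, -1.48 to -1.31), and Cxcl3 at 125 and 59.1 CPM (-1.08, -1.22 to -0.94). In conventional dendritic cells Cxcl1 had -1.26 and Cxcl3 -0.74, whereas Nfkbiz and Nfkbid of the signaling list both had 0.70 and Icam1 0.64. These too are ratios over cDC1 and cDC2 together, and the part of their differing makeup was not tested. In eosinophils Cxcl2 had 0.90 and Acod1 -0.68. The dissociation genes summed to 4320 and 5965 CPM in monocytes and to 6287 and 7319 CPM in macrophages, and their part in the chemokine values was not tested.

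Over 15 groups in 2 libraries (30 points), each gene was set beside 10581 others by Pearson's r of log2(CPM + 1), as a description, since the points share libraries and free RNA. Il1a was most like Cxcl2 (0.93), Clec4d (0.90) and Card19 (0.89). Il1b was most like Tnfaip2 (0.95), Zfp36 (0.92) and Nlrp3 (0.92). Il1rn was most like Ptgs2 (0.95), Gla (0.95) and Ier3 (0.94), and Il1r2 like Lmnb1 (0.87), Ifitm1 (0.86) and Chac1 (0.76). Il1rap was most like Slfn4 (0.84), Nlrp3 (0.83) and Cd53 (0.82), and Nlrp3 like Clec4n (0.93), Hcar2 (0.92) and Il1b. Il18 was most like Tgfbi (0.90), Lyz2 (0.89) and Capza2 (0.89), Il18bp like Creb5 (0.81), Slc31a2 (0.80) and App (0.78), and Casp1 like Rnf213 (0.84), Oas1a (0.82) and Diaph2 (0.81). Il1b and Nlrp3 were thus each among the 3 nearest genes of the other, and the nearest genes of Casp1 include Oas1a, an interferon-induced gene.

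**Figure D5:**
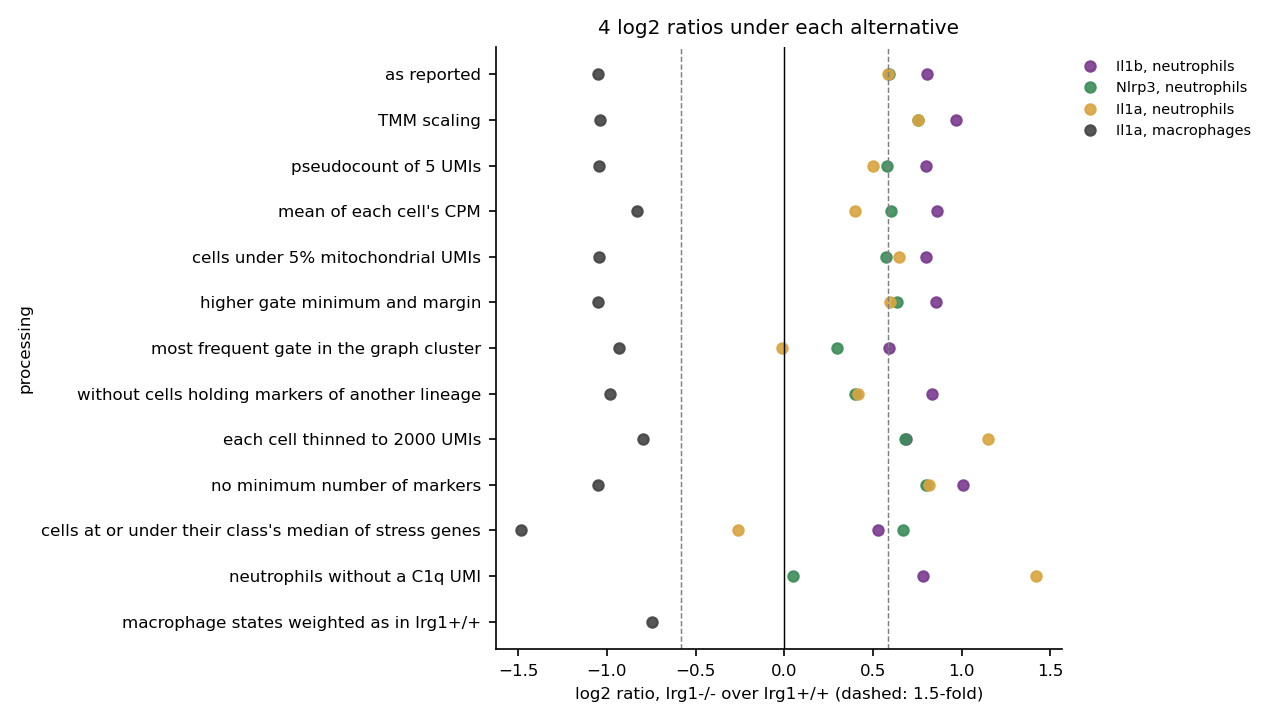
Log2 ratios of 4 gene and group pairs (Irg1-/- over Irg1+/+, horizontal axis) under each processing alternative (vertical axis), with dashed lines at 1.5-fold. Il1b in neutrophils stays above 0 and Il1a in macrophages below 0 throughout, whereas Il1a in neutrophils crosses 0.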

How the data were processed

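The authors trimmed reads with fastp, listed cell barcodes with UMI-tools and aligned with STAR to GRCm38 (Ensembl annotation), and per the labels used CASAVA 1.8 before and Seurat after. They deposited raw UMI counts per gene and cell, 1 matrix for each of 2 libraries, with 43617546 and 36432067 UMIs. The count files were used as deposited. Cells with mitochondrial genes under 10% of UMIs were kept, mitochondrial genes were left out, and a cell with over 200 genes was gated to the class whose markers had the top average z score, provided that 3 markers had a UMI, the score reached 0.5 (0.25 for a macrophage state) and its lead was 0.1. Doublets were kept, and cells with markers of another lineage were left out as an alternative. Group names are those of these gates and may differ from the authors' own.

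UMIs were summed per group and library and given as CPM (exact Poisson 95% intervals). Shares of cells were taken after thinning to 1000 UMIs per cell (exact Clopper-Pearson intervals). A share of 0 is given with its upper bound. Log2 ratios had 0.5 UMI added and binomial counting intervals. With 1 library per genotype no test was made, and a ratio was counted past 1.5-fold with at least 20 UMIs over both libraries. The 9 genes, the markers and the 7 gene lists (IL-1 family ligands, receptors, inflammasome, caspases and pores, signaling, NF-κB induced genes, dissociation stress) were chosen with earlier results of these data known, and the minimum of 3 markers was set after cells had been seen. Named were the 9 genes, list genes past 1.5-fold with at least 100 UMIs in neutrophils, eosinophils, monocytes, macrophages or conventional dendritic cells, and the 3 genes most like each of the 9. Il36 genes were found under their older symbols. Gene identifiers matched GENCODE M21 for 31184 of 31253 genes, and all 9 matched RefSeq starts. Software was Python 3.11.15, numpy 2.4.6, scipy 1.17.1, scanpy 1.11.5, matplotlib 3.10.9, R 4.3.3 and edgeR 4.0.16 (TMM factors only).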

Additional observations from a re-analysis of the deposited data

Results flagged for a closer look

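Il1a differed in direction between cell types under the same comparison of libraries. Its log2 ratio, Irg1-/- over Irg1+/+, was 0.59 in neutrophils and 0.83 in eosinophils, and it was -0.68 in monocytes and -1.05 in macrophages. With 1 library per genotype each group has a single value on each side, and the difference between groups was not tested. The eosinophil value rests on 5 and 24 UMIs, and its interval, -0.48 to 2.68, held 0. The neutrophil value was -0.26 in low-stress cells and -0.013 by cluster, and it was past 1.5-fold in 6 of 11 alternatives.

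Cells with at least 10% mitochondrial UMIs, which no comparison used, also held transcripts of several of the 9 genes with an interval wholly above the level of 3 UMIs (17.6 CPM for the 124 Irg1+/+ cells and 23.8 CPM for the 102 Irg1-/- cells). In the Irg1+/+ library these cells read 685 CPM of Il1b, 843 CPM of Il1rn, 263 CPM of Il1r2, 433 CPM of Nlrp3 and 82.0 CPM of Casp1. In the Irg1-/- library they read 63.6 CPM of Il1a, 1113 CPM of Il1b, 708 CPM of Il1rn, 135 CPM of Il1r2, 63.6 CPM of Il18bp, 334 CPM of Nlrp3 and 111 CPM of Casp1. Il1rap and Il18 had 1 UMI in each library, and Il1a and Il18bp in Irg1+/+ had 3 and 7 UMIs, with intervals that reached below that level. Cell types were not assigned to these cells.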

How the results depend on the processing

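No paired analysis was possible because each genotype has 1 library, and no library could be left out for the same reason. Outside NK and B cells 29 ratios were past 1.5-fold, pooled groups counted beside their own parts, so that not all of these ratios are separate results. Under the alternatives they took 286 values, of which 278 kept their sign and 211 stayed past 1.5-fold, and 4 ratios stayed past it in every alternative run: Il1a in macrophages and in interferon-activated monocytes, Il18bp in monocytes and Il1r2 in lymphocytes. The cause of the changes below was not tested. The low-stress subset, the setting without a minimum of markers, neutrophils without C1q and the weighting of macrophage states were chosen after seeing the data. Groups that led no cluster have no value by cluster.

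In neutrophils the Il1b ratio was 0.97 with TMM, 0.59 by cluster, 0.69 thinned to 2000 UMIs, 1.01 with no minimum of markers and 0.53 in low-stress cells. That of Nlrp3 was 0.30 by cluster, 0.40 without cells holding markers of another lineage, 0.80 with no minimum of markers and 0.051 without C1q. That of Il1a was -0.013 by cluster, -0.26 in low-stress cells, 1.15 thinned and 1.42 without C1q, and that of Il1rap was -0.53 thinned, with 27 and 88 cells left. The count of the 9 genes past the threshold, 4, became 0 at 2-fold, 1 with 5 UMIs added, 2 by cluster and 2 in low-stress cells. The Il1b level in Irg1+/+ was 6828 CPM as a mean over cells, 6851 by cluster, 6778 thinned and 5026 with no minimum of markers. In Irg1-/- it was 12425 as a mean over cells, 11035.5 with a higher gate, 10937.5 thinned and 8661 in low-stress cells.

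In macrophages the Il1a ratio was -0.83 as a mean over cells, -0.80 thinned, -1.48 in low-stress cells and -0.75 with weighted states. That of Il1b was -0.32, -0.38, -0.30 and -0.26 in the same settings and -0.17 by cluster. The count of lower genes, 1, became 2 by cluster and 2 in low-stress cells. Reversed were also Il1a in low-stress Mrc1 macrophages (0.33), in thinned cDC1 (0.91) and in mature dendritic cells (-0.12 as a mean over cells, -0.19 in low-stress cells), and Il1r2 in eosinophils by cluster (-0.12). The Il1b ratio in Mrc1 macrophages, 0.60, was 0.21 without cells holding markers of another lineage, 0.41 thinned, 0.42 as a mean over cells and 0.48 with a higher gate. Il18bp in Irg1+/+ MHC class II macrophages, 171 CPM, was 96.0 CPM by cluster. The 5 NF-κB induced genes lower in monocytes became 0 at 2-fold.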

Other observations

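Il1r2 and the IL-33 receptor gene Il1rl1 were not even among T cells. T cells with a UMI of Foxp3, the regulatory T cell factor, which was chosen after values were seen, held 195 CPM of Il1r2 (179 to 211) in Irg1+/+, against 116 CPM (108 to 125) in T cells without. In Irg1-/- the values were 112 CPM (94.7 to 133) and 77.6 CPM (69.4 to 86.5). Il1rl1 was at 56.0 CPM with a Foxp3 UMI and 19.96 CPM without in Irg1+/+, and at 80.0 and 19.2 CPM in Irg1-/-. Il18r1, a chain of the IL-18 receptor, ran the other way, at 104 CPM with and 190 CPM without in Irg1+/+ and at 96.6 and 211 CPM in Irg1-/-. Il1b, at 390 and 358 CPM in Irg1+/+ and 371 and 326 CPM in Irg1-/-, differed less between the same cells. T cells with a Foxp3 UMI were deeper, with medians of 5503.5 and 6125 UMIs against 3630.5 and 3370.5, and there were 352 and 145 of them.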
